A study of Mus musculus with 75 samples.

Results

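Germ cells of female and male mouse embryos at E15.5 were compared gene by gene, with the 2 female libraries (fetal oocytes, from the ovary) set against the 2 male libraries (prospermatogonia, from the testis). These 4 libraries were chosen by their labels out of the 75 of the series, and 23699 autosomal genes of the 26218 in the table were followed. The cells were sorted as RFP(+) from embryos of strain ICR:C57BL/6=1:1 with genotype Ddx4-RFPTg/0, in both sexes, so the 2 groups share strain, reporter transgene and stage. The transgene is driven by Ddx4, a gene of germ cells, and the sort therefore keeps cells in which that promoter is active. The same reporter and strain were used at E14.5 (2 female and 2 male libraries), and a Dppa3-EGFPTg/0 reporter with GFP(+) sorting at E12.5 and E13.5. In culture, PGC-like cells made from embryonic stem cells of strain 129S1:C57BL/6=1:1 (genotype Prdm1-mVenusTg/0; Dppa3-ECFPTg/0) were compared at culture day 9, 2 libraries under a condition named RB against 2 under CT. The labels date the start of the factors for a female fate to culture day 3 and do not spell out RB or CT. Nor do they say whether 2 libraries of a group are separate animals or pools, so each p-value speaks only for the spread among these samples, which may be technical.

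At this stage germ cells of the ovary are in the first meiotic prophase, whereas those of the testis have left the cell cycle and begin to rebuild DNA methylation with the help of piRNAs. In prophase the chromosomes are held on a protein axis, cut by SPO11, paired, and zipped together by the synaptonemal complex while their telomeres are tied to the nuclear envelope. STRA8 switches many of these genes on, after signals of BMP and retinoic acid, and NANOS2 and DND1 keep the male cells out of meiosis.

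Depth, estimated from the value that 1 read takes, was about 3290000 and 3590000 reads in the female libraries and 2700000 and 2830000 reads in the male ones. A value of 3 reads, used as a floor, was therefore 0.835 to 0.913 RPM (a gene's reads scaled to the total of its library) in females and 1.06 to 1.11 RPM in males. Across all 12567 genes tested below, not only autosomal ones, the 2 libraries of a sex had Pearson r = 0.971 (male) and 0.979 (female). Libraries of different sex had r between 0.675 and 0.697, described across genes that share libraries. X-linked genes held 4.73 and 4.67% of the signal in females and 2.85 and 2.82% in males. The 6 germ cell markers (Ddx4, Dazl, Mael, Stk31, Tex15, Rnf17) summed to 5903 and 5443 RPM in females and 4888 and 4692 RPM in males. Dazl and Tex15 were called higher in females. Without a call, Ddx4 and Mael were higher in both males, and Stk31 and Rnf17 slightly higher in both females. Markers of other gonadal cells were low in all 4 libraries, and their lists summed higher in males. The 6 Sertoli genes summed to 4.56 and 10.3 RPM in females and 20.8 and 21.9 RPM in males. Amh was at 0 in all 4, and Dhh and Cldn11 at 0 in females. Fgf9 of that list ran the other way, at 4.26 and 10.02 RPM in females against 2.96 and 3.53 RPM in males. Wnt4 and Irx3 (pregranulosa) and Nr2f2 (interstitial) were also higher in both females than in both males. Of those tested, 2 of 2 Sertoli, 3 of 4 Leydig, 1 of 3 pregranulosa and 4 of 5 interstitial genes were called lower in females, and Wnt4 of the pregranulosa list higher. The 6 Leydig genes summed to 7.17 and 8.07 against 27.6 and 30.7 RPM (Cyp11a1 and Cyp17a1 at 0 in females), the 6 pregranulosa genes to 11.6 and 11.7 against 31.9 and 29.7 RPM, and the 8 interstitial genes to 9.74 and 36.7 against 55.2 and 69.5 RPM. The 9 blood genes summed to 117 and 387 RPM in females and 331 and 172 RPM in males, with most of it in the globins Hba-a1 and Hbb-b1. In sorted bulk cells, fewer cells of a type and less RNA per cell cannot be told apart.

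The female and male libraries differed in many genes in either direction. A gene is called here when its Benjamini-Hochberg adjusted p in limma is below 0.05 and its log2 difference, female minus male on the log2(RPM + 1) scale, is at least 1 in size. Of 11691 autosomal genes tested, 2709 (23.2%) were called higher in females and 3524 (30.1%) lower, 53.3% in all. The counts called in each gene list below stand against these shares. At an unadjusted p below 0.05 there were 8463. The median over all genes tested was -0.14, and scaling to the added spike-in RNA moved it to 0.26 and the split to 3556 higher and 2488 lower (12567 genes were tested in all 22 embryo libraries, and both E9.5 libraries, which held little spike-in, are left out of that fit). Of the 2709 higher calls 2687 were also made on the spike-in scale, and all 2488 lower calls made there were among the 3524. Differences of at least 2 were found in 1059 higher and 1757 lower genes, and of at least 5 in 28 and 61. In 9800 of the 11691 genes (83.8%), called or not, both values of 1 sex lay above both of the other. Lack of overlap is therefore common with 2 libraries a sex. The genes higher in females held 30.3 and 29.9% of the signal of the female libraries and 8.20 and 7.88% of the male ones, and the genes lower in females held 8.33 and 7.84% against 29.3 and 30.3%. RPM is not divided by transcript length in this 3′-end assay, so levels are compared within a gene and not between genes.

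**Figure D1:**
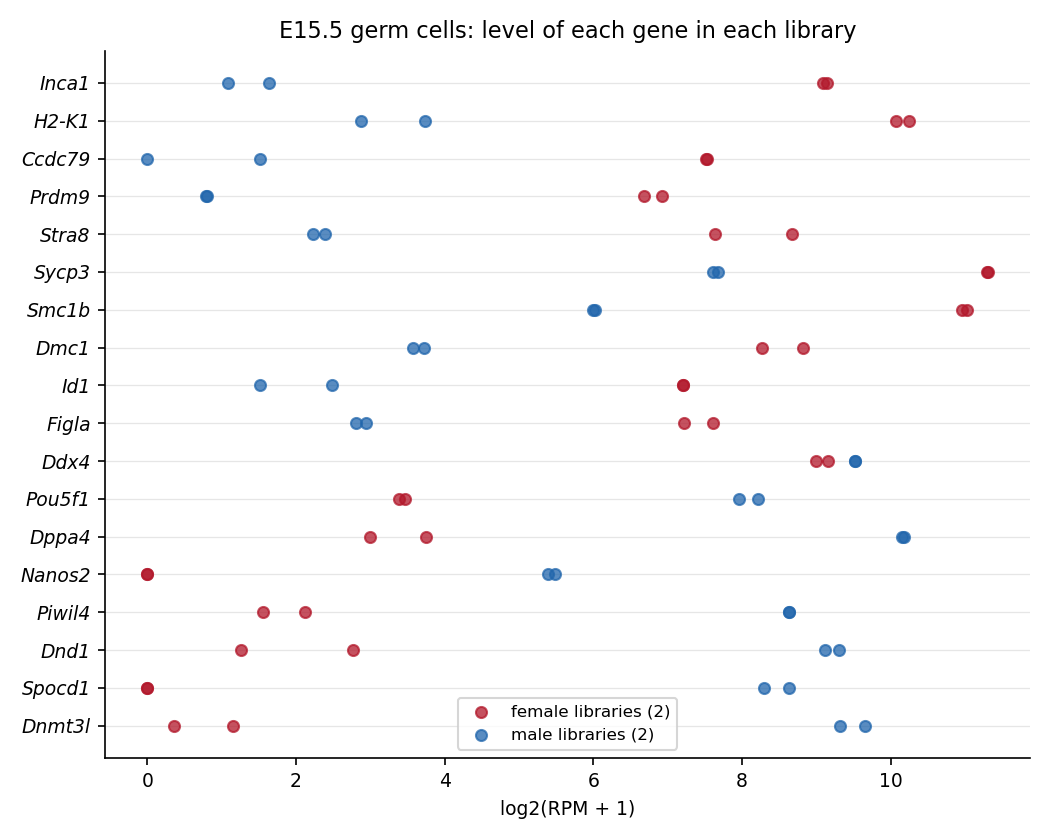
Level of 18 genes in each E15.5 library, as log2(RPM + 1) on the x axis, with 1 red point per female library and 1 blue point per male library. Inca1 to Figla lie higher in both female libraries, Pou5f1 to Dnmt3l higher in both male libraries, and Ddx4, the gene of the sorting reporter, differed by -0.45 on the log2 scale and was not called.

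Of the genes named by size, the widest gap towards females was that of Inca1 (chromosome 11, 70688361 to 70700285 in GRCm38.p6), which encodes an inhibitor of cyclin-dependent kinases. It measured 542 and 566 RPM in females against 1.11 and 2.12 RPM in males, a log2 difference of 7.76 (SE 0.55), adjusted p = 1.25e-11 by limma. Both male values lie near the floor of 3 reads. BC051142 measured 204 and 163 RPM in females and was at 0 in both males, at least 169-fold higher against the floor of the male libraries. Zfp672, a zinc-finger gene whose span overlaps Zfp692, measured 300.0 and 247 RPM in females against 0.741 and 2.12 RPM in males. D6Mm5e (M1ap), a gene needed for meiosis in the testis, measured 1076 and 953 RPM in females against 16.7 and 12.4 RPM in males, with the smallest standard error of the 12 genes named for this direction (log2 difference of 6.04 (SE 0.21), adjusted p = 5.47e-17). The other genes named by size, Ccdc79, Spdya, Prdm9, Stra8, 4930528F23Rik, H2-K1, H2-D1 and 1700123I01Rik, belong to the lists described next. Lack of overlap between the female and male libraries was a condition for naming these 12 and is no result about them.

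Meiotic entry regulators were higher in females in 6 of 7 genes tested, with a median of 1.92. Stra8 (chromosome 6, 34920163 to 34939344), the factor that starts the meiotic programme, measured 408 and 198 RPM in females against 3.71 and 4.23 RPM in males (log2 difference of 5.84 (SE 0.44), adjusted p = 2.84e-11 in limma). Female library 1 was above female library 2, and both lie far above the males. Gm1564 (Meioc), whose product keeps cells in prophase, measured 392 and 379 RPM in females against 10.7 and 8.82 RPM in males, and its partner Ythdc2, an RNA helicase that reads m6A, measured 87.9 and 95.8 RPM in females against 15.9 and 17.6 RPM in males. Rbm46, an RNA-binding partner of both, measured 101 and 88.5 RPM in females against 24.8 and 23.6 RPM in males. All 3 were called higher, with log2 differences of 5.17, 2.38 and 1.92. Dazl, which licenses germ cells to enter meiosis, measured 1878 and 1621 RPM in females against 896 and 649 RPM in males. Taf4b, a subunit of TFIID, measured 415 and 421 RPM in females against 155 and 174 RPM in males. Zglp1, a factor of the oogenic fate downstream of BMP, ran the other way at 13.1 and 11.97 RPM in females against 22.97 and 31.4 RPM in males, log2 difference of -1.04 (SE 0.32), adjusted p = 0.00611. Its call was lost under each of the 3 other scalings.

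The lists of BMP targets, retinoic acid targets and FGF-ERK feedback genes each had calls in both directions. Of 12 BMP targets tested 5 were higher (Id1, Id2, Id3, Gata2, Smad6) and 2 lower (Smad7, Zglp1), with a median of 0.30. Id1, an inhibitor of bHLH factors, measured 147 and 147 RPM in females against 1.85 and 4.59 RPM in males (log2 difference of 5.21 (SE 0.30), adjusted p = 2.72e-13 in limma). Id3, of the same family, measured 164 and 100.2 RPM in females against 9.63 and 5.29 RPM in males. Both are well separated between the sexes. Smad7, which blocks the receptors, measured 1.52 and 1.95 RPM in females against 15.6 and 16.6 RPM in males. Among 6 retinoic acid targets tested Stra8 was the 1 called higher and 4 were lower. Crabp2, a retinoic acid carrier, measured 49.7 and 41.3 RPM in males against 1.83 and 2.51 RPM in females, and Hoxb1 5.93 and 9.53 RPM in males with 0 in both females. Tgm2, a transglutaminase, was lower by a smaller step (-2.60), and Rarb, Cyp26a1, Cyp26b1 and Dhrs3 did not reach the level needed for the test. Of 10 FGF-ERK feedback genes 1 was higher (Spred1, 129.9 and 123 RPM in females against 24.8 and 21.9 RPM in males) and 2 lower (Dusp6, Spred2). The Dusp6 call was lost in 4 of 13 alternatives, and the median of that list, -0.44, turned to 0.26 under quantile normalization.

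Cohesin, axis and synaptonemal complex genes were higher in females in 13 of 15 tested and lower in none, with a median of 2.77. Smc1b, the meiotic SMC subunit of cohesin, measured 1994 and 2088 RPM in females against 62.6 and 64.2 RPM in males. Stag3, another meiosis-specific subunit, measured 1043 and 945 RPM in females against 266 and 300.0 RPM in males. The kleisin Rad21l was low throughout, at 6.69 and 8.91 RPM in females against 0.741 and 0.353 RPM in males. Rec8, the other meiotic kleisin, was the exception: 73.3 and 31.2 RPM in females against 30.02 and 28.9 RPM in males, log2 difference of 0.68 (SE 0.33), adjusted p = 0.0691, with female library 2 next to the males. Its difference reached the call without that library (1.29, adjusted p = 0.00277) and on the spike-in scale (1.10, adjusted p = 0.0152). The lateral element Sycp3 measured 2512 and 2529.5 RPM in females against 203 and 195 RPM in males. Its partner Sycp2 measured 608 and 625 RPM in females against 88.2 and 91.4 RPM in males. Sycp1, the transverse filament, measured 754 and 720.4 RPM in females against 45.9 and 62.1 RPM in males. Of the central element, Syce2 had the largest difference, 1197 and 1185 RPM in females against 44.1 and 41.99 RPM in males (log2 difference of 4.76 (SE 0.10), adjusted p = 1.18e-20), and Syce1, Syce3, Tex12 and 4930447C04Rik (Six6os1) were higher by 2.62, 4.31, 2.01 and 2.77. Hormad1, which marks unsynapsed axes, measured 889 and 945 RPM in females against 139 and 136 RPM in males. Hormad2, its relative, measured 226 and 179 RPM in females against 14.8 and 15.9 RPM in males. Trip13, the ATPase that removes them, was not called (52.3 and 31.7 RPM in females against 41.5 and 44.1 RPM in males). In 14 of the 15, Rec8 included, both female values stood above both male values. Over all autosomal genes tested, the sexes did not overlap, in either direction, in 83.8%. Rec8 was separated only narrowly, at 31.2 against 30.02 RPM. Males too held Stag3 and Sycp3 well above the floor.

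Of 8 double-strand break genes tested 7 were higher (median 3.36). Spo11, the enzyme that cuts, measured 269 and 187 RPM in females against 32.6 and 21.9 RPM in males. Gm960 (Top6bl), its partner subunit, measured 40.2 and 39.4 RPM in females against 1.85 and 2.47 RPM in males. Both are clear of the males. Mei1, needed for the breaks, measured 151 and 145 RPM in females against 2.22 and 4.23 RPM in males. Ccdc36 (Iho1), a break factor of the axis, measured 118 and 108 RPM in females against 0.741 and 4.23 RPM in males. The males were under 5 RPM for either gene. Mei4, which works with IHO1, measured 24.0 and 23.4 RPM in females against 1.85 and 3.97 RPM in males. Prdm9, the methyltransferase that marks hotspots, measured 120.2 and 102 RPM in females against 0.741 and 0.729 RPM in males. Its reader Zcwpw1 measured 115 and 123 RPM in females against 38.9 and 27.2 RPM in males. For Prdm9 both males are under the floor of 3 reads, whereas Zcwpw1 was above it in both sexes. 2410076I21Rik (Rec114) was not called, at 85.5 and 70.7 RPM in females against 50.0 and 55.8 RPM in males.

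Strand exchange and crossover genes were higher in 16 of 19 tested, with a median of 2.35. Dmc1, the meiotic recombinase, measured 449 and 308 RPM in females against 12.2 and 10.9 RPM in males. Its log2 difference was 4.89, and the sexes do not overlap. The pair Psmc3ip and Mnd1, cofactors that act as a dimer in strand exchange, split: Psmc3ip measured 47.8 and 61.2 RPM in females against 18.2 and 19.4 RPM in males and was higher (1.48, adjusted p = 8.15e-07). Mnd1 measured 54.2 and 46.8 RPM in females against 144 and 172 RPM in males and was lower (-1.63, SE 0.19, adjusted p = 3.98e-08). Mnd1 was the 1 gene of the list called lower, and it was lower at E14.5 too (42.4 and 38.6 RPM against 119 and 153 RPM). 4930528F23Rik (Meiob), which binds single strands and whose span overlaps Hagh, measured 265 and 259 RPM in females against 3.33 and 5.29 RPM in males. Its partner Spata22 measured 45.6 and 40.1 RPM in females against 7.04 and 8.12 RPM in males. Brca2 and its meiotic partners Hsf2bp and 4930432K21Rik (Brme1) were higher by 2.86, 2.21 and 2.81. Of the crossover factors, Msh4 measured 91.0 and 83.2 RPM in females against 6.67 and 6.35 RPM in males. Msh5, its partner, measured 111 and 116 RPM in females against 2.22 and 2.47 RPM in males. The helicase Hfm1 measured 444 and 435 RPM in females against 30.02 and 29.3 RPM in males. In all 3 the sexes are far apart. Rnf212, which selects crossover sites, and Helq were not called (71.2 and 78.8 RPM in females against 34.1 and 49.4 RPM in males, and 9.74 and 10.3 RPM in females against 7.41 and 8.47 RPM in males).

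Telomere attachment genes had the highest median of the lists, 4.69, with 6 of 7 higher. The complex of Ccdc79 (Terb1), 4933406J08Rik (Terb2) and 1700123I01Rik (Majin) joins telomeres to the inner nuclear membrane. Ccdc79 measured 183 and 182 RPM in females against 1.85 and 0 RPM in males. 4933406J08Rik measured 111 and 113 RPM in females against 1.48 and 6.71 RPM in males. 1700123I01Rik measured 196 and 145 RPM in females against 2.59 and 3.18 RPM in males. Male libraries were between 0 and 6.71 RPM for the 3 subunits, below both females. Spdya, an activator of CDK2 at telomeres, measured 345 and 357 RPM in females against 5.56 and 1.76 RPM in males, while Cdk2 itself measured 43.5 and 42.9 RPM in females against 40.0 and 38.1 RPM in males and was not called. Spdya overlaps Trmt61b on the chromosome. Sun1 and Ccdc155 (Kash5), which span the envelope, were higher by 1.57 and 3.91. The plot of list members by their log2 difference shows these 5 groups on the female side.

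**Figure D2:**
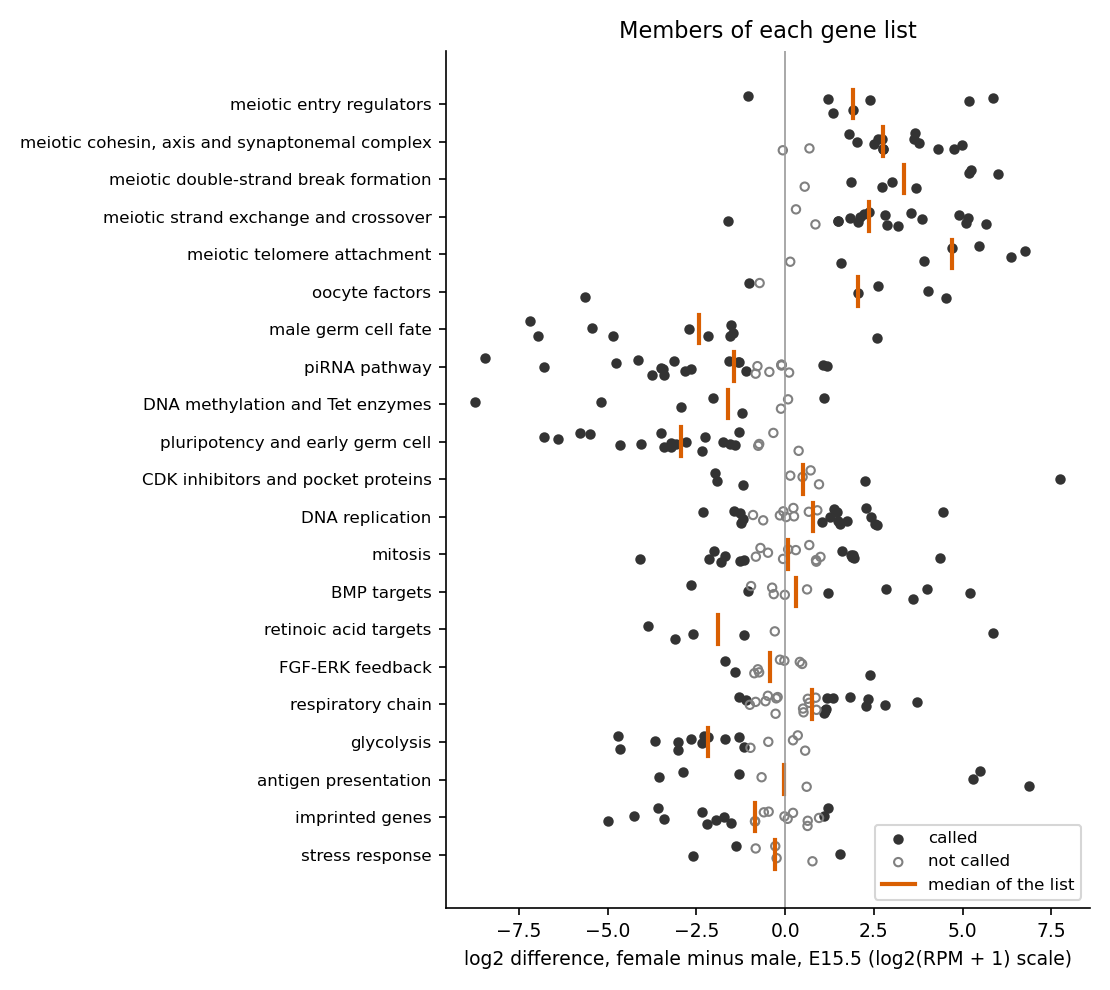
Each point is an autosomal list member tested at E15.5, by its log2 difference (female minus male, log2(RPM + 1) scale) on the x axis and its list on the y axis. Filled points were called, open points were not, and the orange bar is the median of the list, from 4.69 for telomere attachment to -2.93 for pluripotency and early germ cell genes.

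Promoter sequences are shown for 5 genes higher in females (Inca1 of the CDK inhibitors and 4 meiotic genes) and for Tdrd9, a piRNA gene higher in males, as examples of 3 short motifs that were counted over all promoters. The sequences are from RefSeq (GRCm38.p6), 250 bases before to 50 after a start site, written 5′ to 3′ on the gene's strand. Capitals mark matches, on either strand, to CACGTG (the E-box, a bHLH motif), TCCCGC (an E2F-like motif) or CNCCTCAG (the motif of the STRA8 and MEIOSIN complex). In Prdm9 promoter 2 a TCCCGC and a CNCCTCAG match overlap.
Inca1 (chr11:70700106-70700405, minus strand): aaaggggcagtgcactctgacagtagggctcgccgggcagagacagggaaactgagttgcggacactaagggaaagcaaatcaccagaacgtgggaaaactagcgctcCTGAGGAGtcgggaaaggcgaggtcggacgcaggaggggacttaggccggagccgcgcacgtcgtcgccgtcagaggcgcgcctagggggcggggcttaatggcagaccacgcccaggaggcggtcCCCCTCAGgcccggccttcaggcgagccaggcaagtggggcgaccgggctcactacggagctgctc
Sycp3 (chr10:88459337-88459636, plus strand): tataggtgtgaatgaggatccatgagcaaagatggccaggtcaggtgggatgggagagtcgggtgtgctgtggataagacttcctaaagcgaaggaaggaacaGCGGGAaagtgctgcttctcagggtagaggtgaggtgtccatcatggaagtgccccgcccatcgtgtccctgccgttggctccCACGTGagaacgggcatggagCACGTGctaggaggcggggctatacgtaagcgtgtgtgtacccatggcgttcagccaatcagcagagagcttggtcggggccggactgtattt
Smc1b (chr15:85131908-85132207, minus strand): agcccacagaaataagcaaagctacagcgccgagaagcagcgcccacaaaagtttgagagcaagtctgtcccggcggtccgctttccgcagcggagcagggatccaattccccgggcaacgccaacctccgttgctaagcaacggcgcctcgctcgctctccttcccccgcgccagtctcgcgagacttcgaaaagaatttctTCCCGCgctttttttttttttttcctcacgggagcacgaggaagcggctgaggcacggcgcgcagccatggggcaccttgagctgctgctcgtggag
Prdm9 promoter 1 (chr17:15563282-15563581, minus strand): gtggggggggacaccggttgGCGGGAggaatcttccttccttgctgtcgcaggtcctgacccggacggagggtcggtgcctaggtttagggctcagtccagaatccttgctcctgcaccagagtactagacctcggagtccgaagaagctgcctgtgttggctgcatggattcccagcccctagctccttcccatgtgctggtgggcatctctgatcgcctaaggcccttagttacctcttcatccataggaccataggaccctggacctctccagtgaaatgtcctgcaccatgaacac
Prdm9 promoter 2 (chr17:15564305-15564604, minus strand): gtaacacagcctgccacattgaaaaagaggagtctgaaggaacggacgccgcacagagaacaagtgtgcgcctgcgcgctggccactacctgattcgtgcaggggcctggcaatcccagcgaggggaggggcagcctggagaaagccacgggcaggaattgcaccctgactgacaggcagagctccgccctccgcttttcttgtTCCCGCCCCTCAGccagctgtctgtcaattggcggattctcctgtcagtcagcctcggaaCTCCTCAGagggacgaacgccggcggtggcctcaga
Msh5 (chr17:35046573-35046872, minus strand): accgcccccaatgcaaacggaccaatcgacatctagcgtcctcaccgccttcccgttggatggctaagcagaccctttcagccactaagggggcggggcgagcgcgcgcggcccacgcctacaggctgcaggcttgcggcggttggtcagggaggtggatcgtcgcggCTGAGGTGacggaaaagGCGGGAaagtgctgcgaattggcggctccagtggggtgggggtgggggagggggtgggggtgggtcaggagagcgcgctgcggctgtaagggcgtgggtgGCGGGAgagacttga
Tdrd9 (chr12:111971309-111971608, plus strand): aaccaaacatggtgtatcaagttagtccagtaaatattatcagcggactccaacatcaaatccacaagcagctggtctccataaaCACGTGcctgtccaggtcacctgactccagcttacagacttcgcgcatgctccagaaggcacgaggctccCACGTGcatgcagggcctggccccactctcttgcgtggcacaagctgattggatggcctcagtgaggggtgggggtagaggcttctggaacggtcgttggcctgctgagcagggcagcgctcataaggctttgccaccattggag

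Over all 32851 promoters in the table CACGTG was found in 7.15%, TCCCGC in 20.0% and CNCCTCAG in 7.94%. Genes called higher in females (2214 of 2709 had a promoter, 2788 promoters) held them in 7.93%, 37.7% and 14.1%, genes called lower (2742 of 3524, 3591 promoters) in 10.8%, 33.6% and 7.38%, and genes tested but not called in 10.995%, 36.3% and 8.37%. CNCCTCAG was thus found more often in promoters of the higher genes than in those of the other tested genes, and TCCCGC at like shares in all 3 sets. In the cohesin and axis list 8, 10 and 5 of 18 promoters held the 3 motifs in that order. Strand exchange genes held TCCCGC in 13 of 15 promoters, telomere genes CNCCTCAG in 3 of 6, and piRNA genes CACGTG in 10 of 26. The 26 piRNA promoters belong to 18 genes, and the 18 of the cohesin and axis list to 15. Windows of the same gene can overlap, as for Tdrd1, Fkbp6 and Hormad1, so these counts include shared sequence. The Stra8 promoter (chromosome 6, 34920698 to 34920997) held none of the 3 in this window. A match describes letters in the window and not binding.

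The oocyte factors had calls in both directions. Of 7 oocyte factors tested 4 were higher (Figla, Sohlh2, Ybx2, Lhx8) and 2 lower, with a median of 2.06. Figla, which controls the zona genes and primordial follicles, measured 148 and 194 RPM in females against 6.67 and 6.00 RPM in males. Ybx2, an RNA-binding protein that stores messages, measured 188 and 204 RPM in females against 25.9 and 37.1 RPM in males. Sohlh2, a bHLH factor, measured 99.8 and 79.6 RPM in females against 7.04 and 2.82 RPM in males. All 3 stood clear of the males. Sohlh1, the partner of Sohlh2 in oocytes and spermatogonia, was the reverse, at 133 and 161 RPM in males against 1.52 and 2.51 RPM in females (log2 difference of -5.63 (SE 0.41), adjusted p = 1.51e-11). Foxo3, which holds primordial follicles at rest, measured 25.9 and 19.5 RPM in females against 45.2 and 47.3 RPM in males, close to the threshold of 1 (-1.01), and lost its call in 5 of 15 alternatives. Kit was not called (18.6 and 27.3 RPM in females against 27.4 and 51.9 RPM in males). Nobox, Gdf9, Zp1, Zp2, Zp3 and Nlrp5 did not reach the level needed for the test.

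Towards males, genes of the male germ cell fate were lower in females in 9 of 10 tested (median -2.44). Nanos2, which blocks meiosis in the testis, measured 43.7 and 40.9 RPM in males and 0 in both females, at least 48.4-fold higher in males against the female floor. Dnd1, its RNA-binding partner, measured 630.3 and 554 RPM in males against 5.78 and 1.39 RPM in females (log2 difference of -7.20 (SE 0.25), adjusted p = 5.5e-17 in limma, with Wdr55 overlapping its span). Nanos3, needed for the survival of germ cells, measured 30.02 and 44.1 RPM in males against 0.304 and 0.278 RPM in females. The female values of the 3 are at or near the floor, apart from 5.78 RPM of Dnd1 in female library 1. Egr4, a zinc-finger factor, measured 307 and 301 RPM in males against 1.52 and 1.39 RPM in females. The Nodal pathway was low in both sexes but higher in males: the ligand Nodal measured 5.56 and 3.53 RPM in males against 0.608 and 1.11 RPM in females, and its co-receptor Tdgf1 2.96 and 1.06 RPM in males against 0 and 0 RPM in females. Of its antagonists, Lefty1 measured 8.15 and 3.71 RPM in males against 0 and 0 RPM in females (log2 -2.71), and Lefty2 differed by -2.17. These 4 calls rest on few reads (that of Tdgf1 was lost in 4 of 13 alternatives), and the list had 6 lower calls under quantile normalization and under spike-in scaling (4 to 10 over the alternatives). Tex101, a surface protein of germ cells, was the exception, at 1197 and 1075 RPM in females against 196 and 178 RPM in males.

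The piRNA pathway was lower in females in 15 of 24 genes tested, higher in 2, with a median of -1.45. Its 3 PIWI proteins, which carry the small RNAs, were all lower. Piwil4, the nuclear one, measured 395 and 396 RPM in males against 3.35 and 1.95 RPM in females. Piwil2 measured 577 and 684 RPM in males against 97.4 and 99.9 RPM in females. Piwil1 measured 37.8 and 28.2 RPM in males against 1.52 and 2.51 RPM in females. Piwil4 had the widest gap of the 3. Spocd1, which links PIWIL4 to DNA methylation, measured 313 and 395 RPM in males and 0 in both females, at least 405-fold higher. The Tudor proteins, which dock PIWI proteins, did not move as one: Tdrd9 (293 and 363 RPM in males against 15.52 and 19.5 RPM in females), Tdrd1, Tdrd5 and Tdrd12 were lower, with log2 differences of -4.15, -3.43, -3.15 and -1.31. Tdrd7 and Tdrkh were not called (123 and 103 RPM in females against 127 and 113 RPM in males, and 108 and 104 RPM in females against 107 and 123 RPM in males). Morc1, a silencer of transposons, measured 389.8 and 435 RPM in males against 13.99 and 14.47 RPM in females. Gtsf1, a PIWI cofactor, measured 535 and 461 RPM in males against 91.3 and 52.6 RPM in females. The helicases Ddx4 and Mov10l1 were not called (568 and 511 RPM in females against 734 and 735 RPM in males, and 355 and 342 RPM in females against 368 and 383 RPM in males). Pnldc1 and 4921515J06Rik (Henmt1), enzymes that process the ends of piRNAs, were lower, at log2 -3.74 and -3.41. Gpat2 and Tex15 were the 2 called higher in females (1007 and 890.0 RPM in females against 403 and 437 RPM in males, and 1462 and 1388 RPM in females against 651 and 698 RPM in males).

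Of 8 DNA methylation and Tet genes 5 were lower and 1 higher (median -1.61). Dnmt3l (chromosome 10, 78042287 to 78063622, overlapping Aire), the cofactor of the de novo enzymes, had the widest gap of all genes named towards males, at 639 and 801 RPM in males against 1.22 and 0.278 RPM in females (log2 difference of -8.73 (SE 0.39), adjusted p = 3.16e-15 in limma). Dnmt3a, the enzyme, measured 387 and 444 RPM in males against 9.74 and 11.1 RPM in females. Dnmt3b measured 19.6 and 25.8 RPM in males against 5.48 and 4.18 RPM in females. The maintenance pair went otherwise: Dnmt1 was not called (100.1 and 95.5 RPM in females against 92.3 and 122 RPM in males), and Uhrf1, which brings it to replicated DNA, was higher at 23.4 and 23.7 RPM in females against 8.52 and 13.1 RPM in males. Tet1 and Tet3, which oxidise methylcytosine, were lower, at log2 -2.95 and -1.21, and Tet2 was not called (0.08). The Tet3 call was lost in 6 of 15 alternatives, quantile normalization and spike-in scaling among them, which leave 4 lower genes in the list. All 3 Dnmt3 genes have both males above both females. Over all autosomal genes tested, the sexes did not overlap, in either direction, in 83.8%.

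Pluripotency and early germ cell genes were lower in females in 18 of 22 tested and higher in none, with a median of -2.93. Dppa4 measured 1161 and 1142 RPM in males against 12.47 and 6.96 RPM in females (log2 difference of -6.80 (SE 0.16), adjusted p = 4.31e-20), and Utf1, a chromatin factor of stem cells, 548 and 655 RPM in males against 7.30 and 5.01 RPM in females. Dppa3 (Stella), which protects methylation in the egg, measured 1411 and 1015 RPM in males against 37.7 and 11.4 RPM in females, and Sall4 248 and 283 RPM in males against 8.82 and 2.51 RPM in females. Each of these 4 stood far apart between the sexes. Pou5f1 (Oct4) measured 249 and 295 RPM in males against 9.43 and 10.02 RPM in females. Sox2, its partner, measured 48.9 and 35.3 RPM in males against 7.61 and 1.95 RPM in females. Nanog measured 13.3 and 7.76 RPM in males and 0 in females. The factors that found the germ line, Prdm14, Tfap2c and Prdm1, had low values: Prdm14 and Tfap2c were lower, at log2 -2.25 and -3.21, and Prdm1 was not called (8.21 and 5.29 RPM in females against 15.9 and 8.82 RPM in males). Zfp42, Klf2 and Tfcp2l1 also were not called (-0.73, 0.38 and -0.33).

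The cell cycle genes had calls in both directions, as had the autosomal genes tested as a whole (23.2% higher and 30.1% lower). Of 26 DNA replication genes 12 were higher and 5 lower (median 0.78). Of 23 mitosis genes 6 were higher and 7 lower (median 0.08), which is near the shares over all genes. Ccne2, a G1/S cyclin, measured 43.2 and 37.9 RPM in females against 0.741 and 1.06 RPM in males. Ccne1 measured 25.9 and 33.1 RPM in females against 3.33 and 5.29 RPM in males. Pcna, the sliding clamp, measured 583 and 584 RPM in females against 187 and 163 RPM in males. These 3 were higher in females, as were Orc1, Gins3 and Rrm2 (2.59, 2.42 and 2.28). The MCM helicase did not move as a unit: Mcm5 measured 396 and 369 RPM in females against 137 and 137 RPM in males, and Mcm7 74.5 and 60.4 RPM in females against 339.8 and 341 RPM in males. Mcm2, Mcm3, Mcm4 and Mcm6 were not called. On the spike-in scale the replication list had 14 higher and 1 lower. Among mitosis genes Mki67, a marker of cycling cells, measured 177 and 196 RPM in females against 6.67 and 9.88 RPM in males (log2 difference of 4.36 (SE 0.18), adjusted p = 4.69e-16 in limma), and Top2a 612 and 534 RPM in females against 160.1 and 137 RPM in males. Ccnb1, the cyclin of mitotic entry, went the other way at 11.1 and 7.66 RPM in females against 179 and 166 RPM in males (log2 difference of -4.08 (SE 0.15), adjusted p = 1.19e-16), while its relative Ccnb2 was not called, at 82.4 and 77.9 RPM in females against 89.3 and 78.3 RPM in males. Aurka, Aurkb, Cdc20, Cdc25c, Bub1b and Ube2c were lower too (-1.80, -2.16, -1.69, -2.00, -1.27 and -1.15), whereas Bub1, Birc5, Kif23 and Tpx2 were higher by 1.60, 1.84, 1.92 and 1.88. Of 9 CDK inhibitors and pocket proteins Inca1 and Cdkn2c were higher, and Cdkn1a, Cdkn1b and Cdkn2b lower, the Cdkn1a call being lost in 5 of 15 alternatives. Cdkn1b, the p27 inhibitor, was low, at 7.41 and 6.35 RPM in males against 2.43 and 0.278 RPM in females, and Cdkn2b measured 20.8 and 18.4 RPM in males against 5.17 and 3.34 RPM in females.

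The lists of 2 energy pathways had medians of opposite sign. Glycolysis genes were lower in females in 12 of 17 tested and higher in none (median -2.18), and respiratory chain genes higher in 11 of 26 and lower in 2 (median 0.77). Eno1, the enolase, measured 507 and 520.0 RPM in males against 18.7 and 18.4 RPM in females (log2 difference of -4.72 (SE 0.11), adjusted p = 4.31e-20 in limma), and Pgam1 620.5 and 742 RPM in males against 24.9 and 26.7 RPM in females. Slc2a3, a glucose transporter, measured 167 and 156 RPM in males against 13.1 and 10.6 RPM in females. Pkm2 (Pkm), the last enzyme of the pathway, measured 778 and 858 RPM in males against 152 and 111 RPM in females. The 4 are separated by wide gaps, but several glycolysis genes have near-identical processed copies in the genome, so their values are uncertain. Gapdh was lower, at log2 -1.31, and Pfkm, Pfkl, Tpi1, Ldhb and Slc2a1 were not called. Of the respiratory chain, Ndufv2 of complex I measured 567 and 533 RPM in females against 38.5 and 44.1 RPM in males. Uqcrc2 of complex III measured 500.4 and 426 RPM in females against 85.6 and 94.9 RPM in males. Cox5a of complex IV measured 1721 and 1664 RPM in females against 362 and 332 RPM in males. These differed by 3.70, 2.34 and 2.28. Atp5b of ATP synthase and Sdha of complex II were the 2 lower (1570.0 and 1484 RPM in males against 689 and 553 RPM in females, and 308 and 333 RPM in males against 154 and 143 RPM in females). Phgdh, the first enzyme of serine synthesis from a glycolytic intermediate, was among the genes named by size, at 301 and 394 RPM in males against 0.608 and 1.67 RPM in females (log2 difference of -7.38 (SE 0.26), adjusted p = 5.5e-17).

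Of 8 antigen presentation genes tested 3 were higher and 3 lower, against 23.2% and 30.1% of all autosomal genes tested. H2-K1 (chromosome 17, 33996012 to 34000619), a class I heavy chain, measured 1215 and 1079.8 RPM in females against 6.30 and 12.4 RPM in males (log2 difference of 6.86 (SE 0.41), adjusted p = 5.98e-13), and H2-D1 99.8 and 78.2 RPM in females against 3.04 and 0 RPM in males. H2-Ab1, a class II chain, measured 146 and 132 RPM in females against 3.71 and 1.76 RPM in males. B2m, the light chain that class I molecules need, was not called, at 49.3 and 65.1 RPM in females against 97.5 and 84.0 RPM in males and adjusted p = 0.127, and Tapbp, which loads peptides, measured 36.3 and 52.9 RPM in males against 1.83 and 4.18 RPM in females. Tap1 and Psmb10 were lower too (-1.30 and -2.87), and the Tap1 call was lost in 6 of 15 alternatives. The class I genes are near-identical to each other, so reads could be shared among them and these values are uncertain. Of 21 imprinted genes 2 were higher (Igf2r, 54.8 and 65.1 RPM in females against 25.9 and 25.1 RPM in males, and Igf2, 52.0 and 41.2 RPM in females against 20.0 and 22.6 RPM in males) and 9 lower (median -0.85). The widest were Sfmbt2 (85.2 and 108 RPM in males against 4.87 and 0.557 RPM in females), Zrsr1 (92.6 and 84.7 RPM in males against 2.43 and 5.29 RPM in females), Slc38a4 (34.1 and 44.8 RPM in males against 2.43 and 2.23 RPM in females) and Meg3 (55.6 and 79.0 RPM in males against 3.96 and 6.96 RPM in females). All 4 are higher in both males, while 83.8% of all autosomal genes tested did not overlap in either direction. H19 was not called (30.4 and 23.1 RPM in females against 24.1 and 26.5 RPM in males). Of 7 stress genes Fos was higher, and Hspa1b and Atf3 lower. The Atf3 call was lost in 7 of 14 alternatives, and the list median of -0.28 was 0.05 on the spike-in scale.

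A stricter description asks which genes reached 20 RPM in both libraries of 1 sex while both of the other stayed under 3 reads. There were 10 such genes in females, of 5674 autosomal genes that reached 20 RPM in both female libraries. In males there were 73, of 5785 that reached it in both male libraries. The count was 240 in all at a level of 10 RPM and 19 at 50 RPM. Beside BC051142 and Prdm9, the female set held Efnb2, a membrane ligand of Eph receptors (46.5 and 55.1 RPM in females against 0 and 0.706 RPM in males), Amy1, an amylase with near-identical copies (40.2 and 56.8 RPM in females against 0.371 and 0 RPM in males), Pparg, a nuclear receptor of lipid metabolism (38.3 and 40.1 RPM in females against 0 and 0 RPM in males), Slc5a10, 1700052K11Rik, 4921531C22Rik, Tcea2 and Clcn4-2. Pparg was at least 36.1-fold and Slc5a10 at least 25.7-fold higher in females, with both males at 0. The male set held, beside Spocd1, Nanos2 and Nanos3, Ccdc164 (Drc1), a part of the ciliary dynein regulatory complex (157 and 189 RPM in males against 0 and 0.278 RPM in females), and Tekt1, a filament protein of axonemes (44.1 and 54.0 RPM in males against 0.304 and 0.557 RPM in females). Myof, a membrane repair protein, measured 178 and 153 RPM in males against 0.304 and 0 RPM in females, and Plac8 104 and 119.6 RPM with 0 in females. Khdc1a, of a family with near-identical members, measured 78.2 and 124 RPM with 0 in females. Several male-set genes are known from other tissues, such as Vwf of endothelium (165 and 174 RPM in males, 0 in females), the immunoglobulin heavy chain Igh with its overlapping segment Ighm (112 and 103 RPM in males against 0.609 and 0.278 RPM in females, and 78.0 and 83.5 RPM in males against 0.303 and 0 RPM in females), Afp of fetal liver (91.5 and 93.5 RPM in males against 0.608 and 0 RPM in females) and Gzma of lymphocytes (32.2 and 31.1 RPM, 0 in females). The 6 endothelial markers summed to 10.6 and 3.90 RPM in females and 56.7 and 64.6 RPM in males. Both genes of that list that were tested, Egfl7 and Pecam1, were called lower in females. Egfl7 measured 44.5 and 41.3 RPM in males against 1.52 and 0.835 RPM in females, and Pecam1 10.01 and 15.2 RPM in males against 6.08 and 3.06 RPM in females. The defining marker Cdh5 was at 0 in both females and at 0 and 1.06 RPM in males. Of the white blood cell markers, Ptprc and Lyz2 were at 0 in both males, and Csf1r (2.22 and 0.706 RPM in males against 1.83 and 1.39 RPM in females) and Tyrobp (1.48 and 1.41 RPM in males against 2.43 and 1.11 RPM in females) were detected in all 4 libraries. None of the 4 blood genes tested was called. The part of other cells in the differences towards males was not tested beyond these values.

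Among the 12 genes named by size towards males, 3 belong to no group above. Rrad, a Ras-related GTPase, measured 388 and 470.4 RPM in males against 1.22 and 0.557 RPM in females (log2 difference of -7.85 (SE 0.37), adjusted p = 7.52e-15 in limma). Mt1, a metallothionein that binds zinc, measured 242 and 279 RPM in males against 0.304 and 2.51 RPM in females. Cln3, a lysosomal membrane protein whose span overlaps Apobr, measured 348 and 425 RPM in males against 2.43 and 2.23 RPM in females. Lack of overlap between the sexes was a condition for naming these 3 too.

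Most of these differences were there a day earlier. At E14.5, 2549 genes (21.8%) were called higher in females and 3045 (26.0%) lower. Both stages called 2097 genes higher, which is 77.4% of the E15.5 calls and 82.3% of the E14.5 calls, and 2625 lower, 74.5% and 86.2%. No gene was called higher at E15.5 and lower at E14.5, and 17 were called the other way. At E12.5, 415 genes were higher and 337 lower, of which 100 (3.69% of the E15.5 calls, 24.1% of the E12.5 calls) and 191 (5.42%, 56.7%) were called in the same direction at E15.5. At E13.5, with 1136 higher and 767 lower, it was 410 (15.1%, 36.1%) and 505 (14.3%, 65.8%). Of all autosomal genes tested, 23.2% were called higher and 30.1% lower at E15.5. The 24.1% for the higher calls of E12.5 is near that share. From E13.5 to E14.5 both the reporter and the stage differ, and they cannot be told apart there. Dppa4 overlapped between the sexes at E12.5 and did not at E14.5: at E12.5 it measured 287 and 298 RPM in females and 290.2 and 316 RPM in males, at E14.5 24.7 and 17.8 against 1096 and 1114 RPM. Dmc1 in females went from 13.9 and 16.7 RPM at E12.5 and 36.9 and 40.7 RPM at E13.5 to 270.4 and 234 RPM at E14.5, with males at 8.13 and 6.86 RPM. Nanos2 in males went from 30.8 and 30.5 RPM at E13.5 to 114 and 89.7 RPM at E14.5 and 43.7 and 40.9 RPM at E15.5, while no female library of these stages passed 0.321 RPM.

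**Figure D3:**
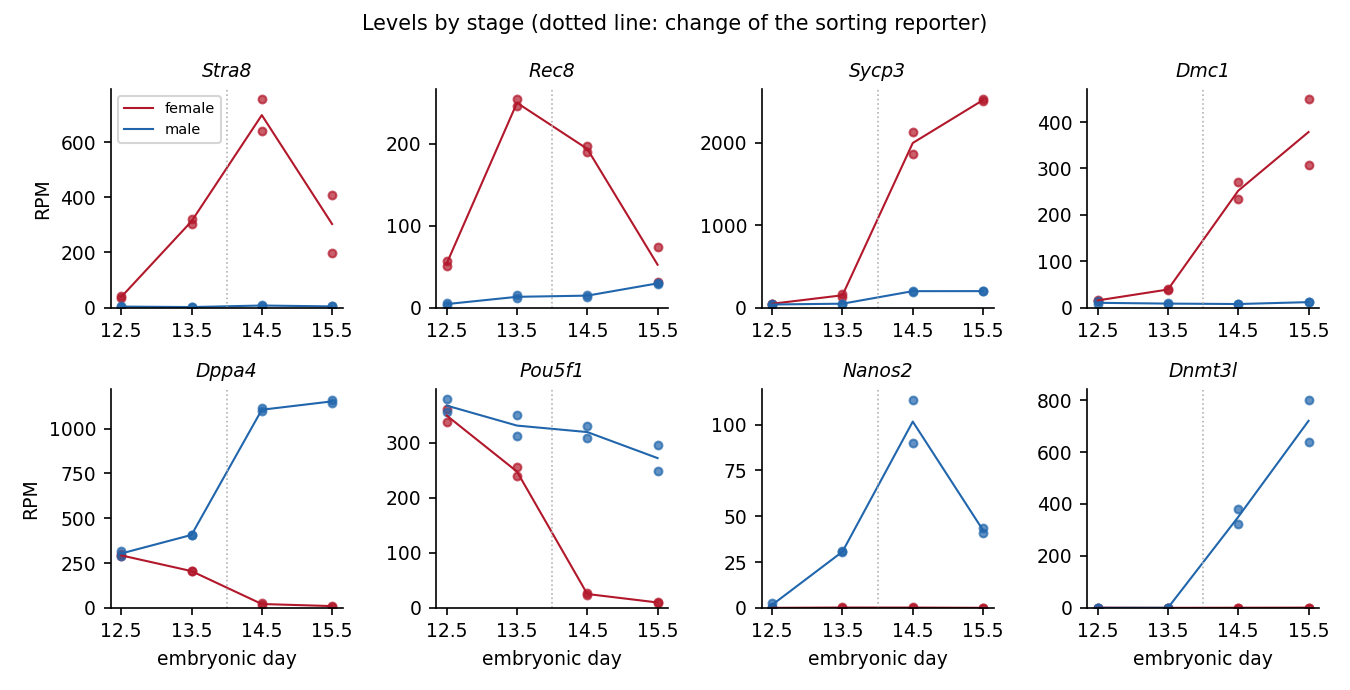
RPM of 8 genes (y axis, from 0, a scale of its own in each panel) by embryonic day (x axis), with 1 point per library and lines through the mean of 2 libraries, red for females and blue for males. The dotted line marks the change of reporter, and Dppa4 parts between the sexes from 287 to 316 RPM in all 4 E12.5 libraries to the gap seen at E15.5.

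Whether a difference changed between the stages was tested as a contrast of contrasts in the same fit. It was called in 508 genes, with 117 (1.00%) moving towards females and 391 (3.34%) towards males. On the spike-in scale 310 moved towards females and 17 towards males, with a median change of 0.59 in place of -0.03, and 103 of the 117 and 17 of the 391 genes were called on both scales, none with opposite sign. After median centring 346 of the 391 were called, and under quantile normalization 316, so most calls towards males were lost on the spike-in scale and not on those 2. Quantile normalization gave 187 and 324. The 6 genes named for moving towards males kept their call in all 18 alternatives. Rec8 measured 197 and 190.4 RPM in females and 13.3 and 15.7 RPM in males at E14.5 and 73.3 and 31.2 against 30.02 and 28.9 RPM at E15.5, a change of -2.97 (SE 0.47, adjusted p = 0.000378 in limma). Both female values were lower, and both male values higher, at E15.5. Phlda2, an imprinted gene that limits placental growth, changed by -3.34, from 51.8 and 26.6 against 13.6 and 19.7 RPM to 11.3 and 2.23 against 21.1 and 37.1 RPM. It was called higher at E14.5 and lower at E15.5, but the E14.5 call was lost in 8 of 15 alternatives. Ly6e, a surface protein, changed by -3.04, from 39.5 and 21.4 against 96.7 and 109 RPM to 2.13 and 5.57 against 145 and 112 RPM. The female values of this gene were lower at E15.5 than at E14.5 in both libraries. Hspb1, a small heat shock protein, and Sept3 (Septin3), a cytoskeletal GTPase, changed by -3.91 and -3.45, with males at 2.41 and 5.72 and 6.93 and 9.43 RPM at E14.5 and 26.3 and 17.3 and 20.0 and 21.2 RPM at E15.5. Pcdhgb4 had the largest value, -4.85, but its span overlaps 25 genes of the protocadherin gamma cluster that share their last exons, and its value is uncertain.

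Of the genes named for moving towards females, Moap1, a partner of the cell death protein BAX, measured 70.1 and 81.5 RPM in females and 18.1 and 16.2 RPM in males at E14.5 and 116 and 112 against 10.6 and 1.60 RPM at E15.5, a change of 2.31 (SE 0.53, adjusted p = 0.00951 in limma). It lost its call in 2 of 18 alternatives. Pmaip1 (Noxa), which triggers cell death, changed by 2.40, from 2.06 and 0.274 against 36.5 and 50.9 RPM to 4.26 and 8.35 against 36.7 and 22.2 RPM, and stayed lower in females at both stages, and its change lost the call in 8 of 18. B3galt6, Galk2, Naa11 and Tmem62 changed by 2.26, 1.87, 2.45 and 2.14 and lost the call in 4, 3, 11 and 12. Galk2 overlaps Fam227b. Of genes that moved towards males and reached 5 RPM in a female library, 167 of 224 (74.6%) were higher in female library 1 than in library 2, and of those that moved towards females 26 of 109 (23.9%), against 4826 of 9107 (53.0%) of all tested. Without female library 2 the count of changed genes was 293, with 206 of the 391 and 46 of the 117 kept. Without male library 2 of E15.5 it was 326. The part of this difference between the libraries in the stage change was not tested beyond these values.

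**Figure D4:**
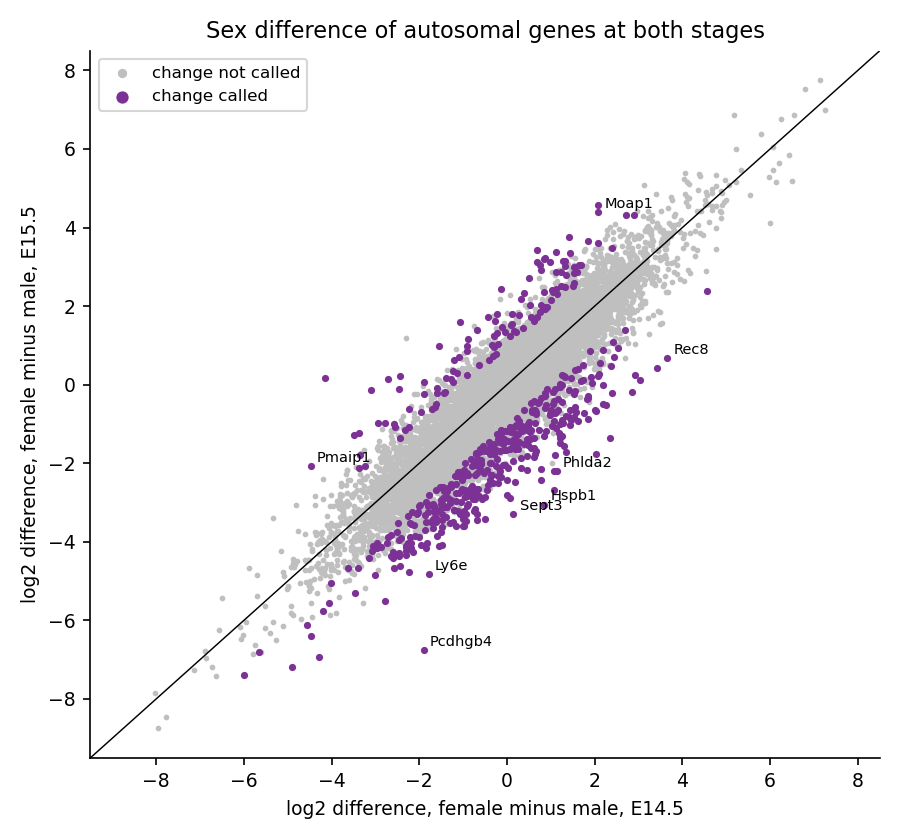
Log2 difference (female minus male) of each of 11691 autosomal genes at E14.5 on the x axis and at E15.5 on the y axis. Purple points are the 508 genes whose difference changed, 391 of them below the diagonal, and the named genes are those with the largest change down together with Moap1 and Pmaip1.

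The same genes were looked up in the cultured cells at day 9, which share no library with the embryo. Of 11086 autosomal genes tested there 2677 (24.1%) were called higher under RB than CT and 1347 (12.2%) lower. Median centring changed that split to 1951 and 2109 and quantile normalization to 1925 and 2216, as the median over all genes moved from 0.19 to -0.13 and -0.11. Of 2541 genes higher in E15.5 females and tested in both, 1384 (54.5%) were higher under RB and 29 (1.14%) lower, with a median of 1.14. Of 2888 genes lower in E15.5 females 838 (29.0%) were lower under RB and 238 (8.24%) higher, with a median of -0.51, and of 5169 genes not called at E15.5 these were 8.14% and 17.4%, with a median of 0.15. Inca1 measured 186 and 252 RPM under RB and 3.86 and 2.26 RPM under CT, H2-K1 1256 and 1365 against 20.2 and 14.9 RPM, and Prdm9 53.6 and 51.1 against 0.0497 and 0 RPM. In these 3 both RB libraries lie far above both CT libraries, as the females lie above the males. All 7 entry regulators were higher under RB, Zglp1 by 3.92, and all 6 retinoic acid targets too, of which 4 were lower in E15.5 females. Of 19 piRNA genes tested in both 13 were higher under RB and 1 lower, against 2 higher and 15 lower of 24 at E15.5, with Piwil4 at 2.47 and Gtsf1 at 4.83 (RB minus CT, log2). Pluripotency genes were lower under RB in 20 of 22 and glycolysis genes in 12 of 17. The difference between embryo and culture was not tested.

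**Figure D5:**
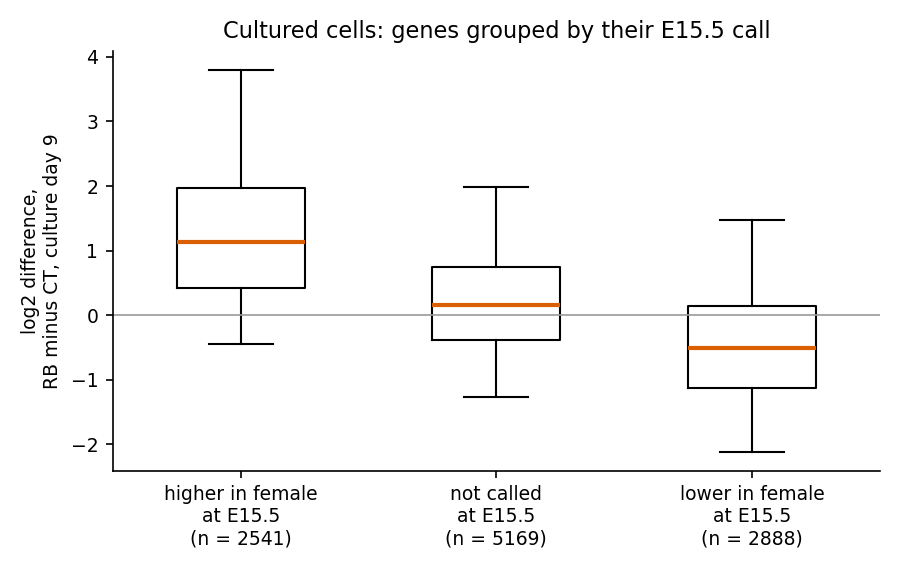
Log2 difference of RB minus CT at culture day 9 (y axis) for genes grouped by their E15.5 call (x axis), as boxes from the lower to the upper quartile with the median in orange and whiskers from the 5th to the 95th percentile. The medians are 1.14 for genes higher in females, 0.15 for genes not called and -0.51 for genes lower in females.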

How the data were processed

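Each deposited value is a signal in RPM for a gene in a library, as the name and values of the authors' table show: gene rows sum to about the same total in every library. The libraries were made by SC3-seq, which reads 3′ ends, from 1 ng of RNA, per the labels. Cufflinks 2.2.0, Bowtie 1.0.1, TopHat 1.4.1 and cutadapt 1.11 are listed in the submitters' processing notes, as is mm10, and strand is not given in the sources used here. Among low values, 90.9 to 92.0% in the E15.5 libraries fell on whole reads (tolerance 0.05 reads). The rest did not, so no count test was run, and depth and floors cover counting error only. Any trace value under 0.001 RPM counted as 0.

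The 22 embryo libraries (11 groups of 2) were fitted together in limma 3.58.1 under R 4.3.3 (lmFit, eBayes with trend) on log2(RPM + 1), which understates the change of low genes. Genes with at least 5 RPM in at least 2 libraries were tested, 12567 in all, and every adjusted p is limma's with Benjamini-Hochberg adjustment over all of them. The 22 libraries of the 129S1:C57BL/6 line were fitted apart (11873 genes). The fit was tested on simulated data. Members and gene lists were chosen with earlier results of these data known. Genes named by size are the 12 called with the largest difference each way, and 6 each way for the change between stages, among genes whose higher group averaged 20 RPM or more and whose libraries do not overlap, leaving out predicted names that no list holds, plus list members by size, by opposite direction or not called. Genes were matched to RefSeq (GRCm38.p6) by ID (24619) or symbol (210), and 1389 IDs did not match. X-linked genes, the other groups and some list members are not reported here. Alternatives were other pseudocounts, filters, scalings, fits on fewer libraries, a replicate block and leaving out each library.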

Additional observations from a re-analysis of the deposited data

Results flagged for a closer look

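The sex difference of 508 autosomal genes changed between E14.5 and E15.5 by the contrast of contrasts in limma, which tests the difference itself. Among those named, the changes (log2, E15.5 less E14.5) were 2.45 for Naa11, 2.40 for Pmaip1, 2.31 for Moap1, 2.26 for B3galt6, 2.14 for Tmem62 and 1.87 for Galk2 towards females. Towards males they were -4.85 for Pcdhgb4, -3.91 for Hspb1, -3.45 for Sept3, -3.34 for Phlda2, -3.04 for Ly6e and -2.97 for Rec8. Groups of 2 libraries are too small for a check of single outlying samples.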

How the results depend on the processing

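The count of genes called at E15.5 (6233) stayed between 4870 (pseudocount 5, of 11691 tested) and 7508 (filter of 1 RPM, of 15290 tested) over all alternatives, with 7445 of 19531 without a filter, and none of the 310 genes followed singly reversed a call at E15.5 (4433 of 4607 values kept their side of the threshold, 116 lost it and 58 gained it). The count of changes between stages (508) was 153 with the 8 libraries of E14.5 and E15.5 only and 327 when scaled to spike-in, and leaving out 1 library gave 293 to 591. For the other counts these ranges were 5975 to 6111 at E15.5, 5358 to 5445 at E14.5 and 3649 to 4008 in culture. On the spike-in scale E14.5 had 1889 higher and 3375 lower. Genes on in 1 sex and at the floor in the other (83) were 240 at 10 RPM and 19 at 50 RPM. A fit with the replicate number as a replicate block called 6234 at E15.5, 504 changes, 5600 at E14.5 and 4047 in culture. Libraries with the same number did not deviate together across genes (r = 0.038 at E15.5, between -0.07 and 0.05 over 55 pairs of groups). This cannot show whether they share an animal, a litter or a preparation. With 2 libraries a group, and floors near 1 RPM, differences in genes of a few reads could not be resolved. Where a library is left out, the lone sample of its group is assumed to vary like the others. The cause of the changes between settings was not tested.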
